A study of Mus musculus with 60 samples.

Results

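Myosin-binding proteins C and H are accessory proteins of the thick filament, the myosin-containing rod of the sarcomere. The C proteins anchor to myosin and titin within the A-band, on either side of its centre, and restrain the myosin heads. In skeletal muscle they are made from Mybpc1, the slow isoform gene, which is transcribed in slow and fast fibers alike, and from Mybpc2, the fast isoform gene. Mybph encodes protein H, a shorter relative that shares the myosin-binding end of the C proteins and is known from fast skeletal muscle. Myostatin, the growth factor missing in the mutant mice, is a secreted member of the TGF-beta family that limits skeletal muscle mass.

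All probe sets that the platform annotation assigns to Mybpc1, Mybpc2 or Mybph were taken, which gives 5 of the 45037 probe sets measured. Mybpc1 (gene ID 109272, chromosome 10) has 3, named 1455645_at, 1442769_at and 1444341_at, and Mybpc2 (gene ID 233199, chromosome 7) has 1, 1455736_at, all on chip B of the Affymetrix MOE430 set. Mybph (gene ID 53311, chromosome 1) has 1, 1419487_at, on chip A. Mybph lies on the same chromosome as Mstn, with 451 measured genes between them. The probes behind a probe set were not at hand, so which transcripts of Mybpc1 each probe set reads was not analysed here.

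MSTN-null mice on the C57BL/6J strain were compared with wild-type C57BL/6J mice at 3 ages: as whole embryos of 13.5 d.p.c., as hindquarters of embryos of 17.5 d.p.c., and as pectoralis muscle at 35 days of age (d35). Each group held 5 pools, each of RNA from 3 animals, so the spread between pools understates that between animals. The animals' sex is not in the labels, and embryos and d35 mice differed in how they were killed (CO2 or cervical dislocation) as well as in tissue. Levels are RMA log2 intensities, and a difference is wild-type minus MSTN-null on that scale, with its standard error (SE) from limma. Calls were made where Storey's q, taken over all 45037, was under 0.05. The level of Mstn was not analysed here, because no probe set carries its symbol.

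The tissues differed in their levels of muscle markers, which is a description, since array medians also differed between the time points. The mean level of 10 skeletal muscle markers ran from 8.77 to 8.97 over the pools of whole embryos, from 10.74 to 11.30 in hindquarters and from 11.46 to 11.72 in pectoralis. Cardiac markers, at 6.33 to 6.57 in pectoralis, and neuronal and Schwann cell markers, at 5.97 to 6.11, were within or below the range of the array medians there (6.16 to 6.94). At 17.5 d.p.c. 2 pools stood apart. MSTN-null pool 5 had a mean of 8.27 over 9 liver markers, against a median of 12.23 in its group, and the chip B array of wild-type pool 1 deviated from its group with an SD of 0.35 over probe sets, against 0.0919 to 0.157 for the 9 others. On chip A, which carries Mybph, the array of wild-type pool 1 had an SD of 0.201, inside the range of 0.135 to 0.233 at that time point. The differences of the 3 genes at 17.5 d.p.c., and most of the values set beside them, are also given without these 2 pools. The genes most alike in course were picked over all 10 pools only.

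Stretches just upstream of the 3 genes are shown because the genes did not move alike, and they let the sequences next to the starts be read side by side. They come from RefSeq promoter windows of GRCm38.p6 (matched by symbol for 3 of 3 genes), cut where the outermost gene model begins, and are written in the direction of transcription. Capitals mark E-boxes (CANNTG, the core read by MyoD-family factors) and MCAT elements (CATTCC, the core read by TEAD factors), on either strand. The Mybpc1 stretch is chr10:88605230-88605402 (minus strand), that of Mybpc2 chr7:44524716-44524919 (minus strand) and that of Mybph chr1:134193198-134193417 (plus strand).
Mybpc1: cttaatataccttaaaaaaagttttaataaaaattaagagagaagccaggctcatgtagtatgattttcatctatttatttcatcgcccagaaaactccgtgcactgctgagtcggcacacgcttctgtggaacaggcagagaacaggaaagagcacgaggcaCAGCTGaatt
Mybpc2: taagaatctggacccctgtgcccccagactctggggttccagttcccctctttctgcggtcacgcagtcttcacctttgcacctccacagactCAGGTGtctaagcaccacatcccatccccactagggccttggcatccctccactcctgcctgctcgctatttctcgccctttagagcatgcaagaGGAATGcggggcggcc
Mybph: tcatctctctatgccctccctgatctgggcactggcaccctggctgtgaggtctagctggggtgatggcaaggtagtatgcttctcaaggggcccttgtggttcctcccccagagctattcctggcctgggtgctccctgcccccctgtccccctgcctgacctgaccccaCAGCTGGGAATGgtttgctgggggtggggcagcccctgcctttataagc

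Each stretch held 1 E-box, and those of Mybpc2 and Mybph each held 1 MCAT element on the reverse strand, which in Mybph followed the E-box directly without overlap. Over the full 300-base windows Mybpc1 held 3 E-boxes, Mybpc2 2 and Mybph 1. At least 1 E-box occurred in 72.3% of the 32851 mouse promoter windows, and at least 1 MCAT element in 14.7%. CAGAC, a SMAD core searched on both strands, was in each of the 3 and in 49.6% of all. A match of letters describes the sequence and was not tested as a binding site.

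At d35 the 3 genes moved in different directions. Mybpc1 was higher in wild-type than in MSTN-null pectoralis, by 1.43-fold at its brightest probe set, whereas Mybpc2 and above all Mybph were lower in wild-type, so that MSTN-null muscle held 1.18-fold and 2.27-fold the wild-type signal. All 5 probe sets were called, where 4.58% of all probe sets were (2.5% higher and 2.08% lower in wild-type). In bulk tissue, fewer cells or fibers of a type and less RNA per cell cannot be told apart.

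Mybph gave the widest separation. The 5 wild-type pools stood at 10.63, 10.97, 11.10, 11.27 and 11.52, and the 5 MSTN-null pools at 12.14, 12.18, 12.22, 12.34 and 12.52. The groups did not overlap, and 5.25% of all probe sets were so separated at d35. The means were 11.10 (SD 0.336) and 12.28 (SD 0.155), a difference of -1.18 (SE 0.134, q = 0.000486, n = 5 pools per genotype), with a 95% interval of 1.86 to 2.77 for the fold of MSTN-null over wild-type. This was the 3rd lowest difference among all 45037 probe sets. The spread among wild-type pools was the wider of the 2 groups, and wild-type pool 2, the lowest, also had the chip A array that deviated most from its group at d35 (SD over probe sets 0.208). Without that pool the difference was -1.06, and q stayed under 0.05.

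Mybpc1 differed in the opposite direction at each of its probe sets. At 1455645_at the MSTN-null pools lay closely together, at 12.35, 12.43, 12.45, 12.50 and 12.51, and the wild-type pools at 12.78, 12.94, 12.96, 12.97 and 13.16. The groups were separate, with means of 12.45 (SD 0.0653) and 12.96 (SD 0.134) and a difference of 0.52 (SE 0.0647, q = 0.000882). At 1442769_at the MSTN-null pools stood at 10.02, 10.05, 10.13, 10.14 and 10.16 and the wild-type pools at 10.25, 10.49, 10.64, 10.76 and 10.85. These groups too were separate, by 1.41-fold (difference 0.49, SE 0.0935, q = 0.00891). At 1444341_at the groups overlapped, since wild-type pool 2 at 10.62 lay inside the MSTN-null range of 10.45 to 10.76, while the 4 other wild-type pools lay at 10.84 to 11.23. The difference there was 0.35 (SE 0.0995, q = 0.0487), and it was no longer called after Benjamini-Hochberg adjustment (q = 0.0757) or in 8 of the 10 fits that left out a pool. The size of the Mybpc1 difference was thus 1.28-fold to 1.43-fold over the 3 probe sets.

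Mybpc2 was the brightest of the 22411 probe sets of chip B on each of the 10 arrays at d35. The wild-type pools stood at 13.68, 13.70, 13.76, 13.79 and 13.85 and the MSTN-null pools at 13.93, 13.95, 13.98, 14.04 and 14.04. The groups did not overlap, although they differed by only -0.23 (means 13.75 and 13.99, SD 0.0676 and 0.0521; SE 0.0488, q = 0.0140). A further quantile normalization gives the top rank of every array one value, and so sets this difference to 0 by construction. The call was also lost without wild-type pool 3 (-0.22, q = 0.0531), in a single fit of all 30 pools (q = 0.480) and after the mean of the skeletal muscle markers was subtracted (-0.17, q = 0.108). The single fit takes 1 variance for a probe set over all tissues. Mybpc2 varied far more between pools in hindquarters (SD 0.542 in wild-type and 0.630 in MSTN-null), so that q does not rest on the spread at d35 alone. Of the 20 next brightest probe sets on the chip, 11 were lower and 9 higher in wild-type, with a median difference of -0.06, and 4 were lower by more than Mybpc2. An exact permutation test of the pools (two-sided, 252 splits) gave p = 0.00794, the smallest such a design allows, for Mybph, Mybpc2, 1455645_at and 1442769_at. Any groups that do not overlap give this value, so it restates their separation. For 1444341_at the permutation test gave p = 0.0238.

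**Figure D1:**
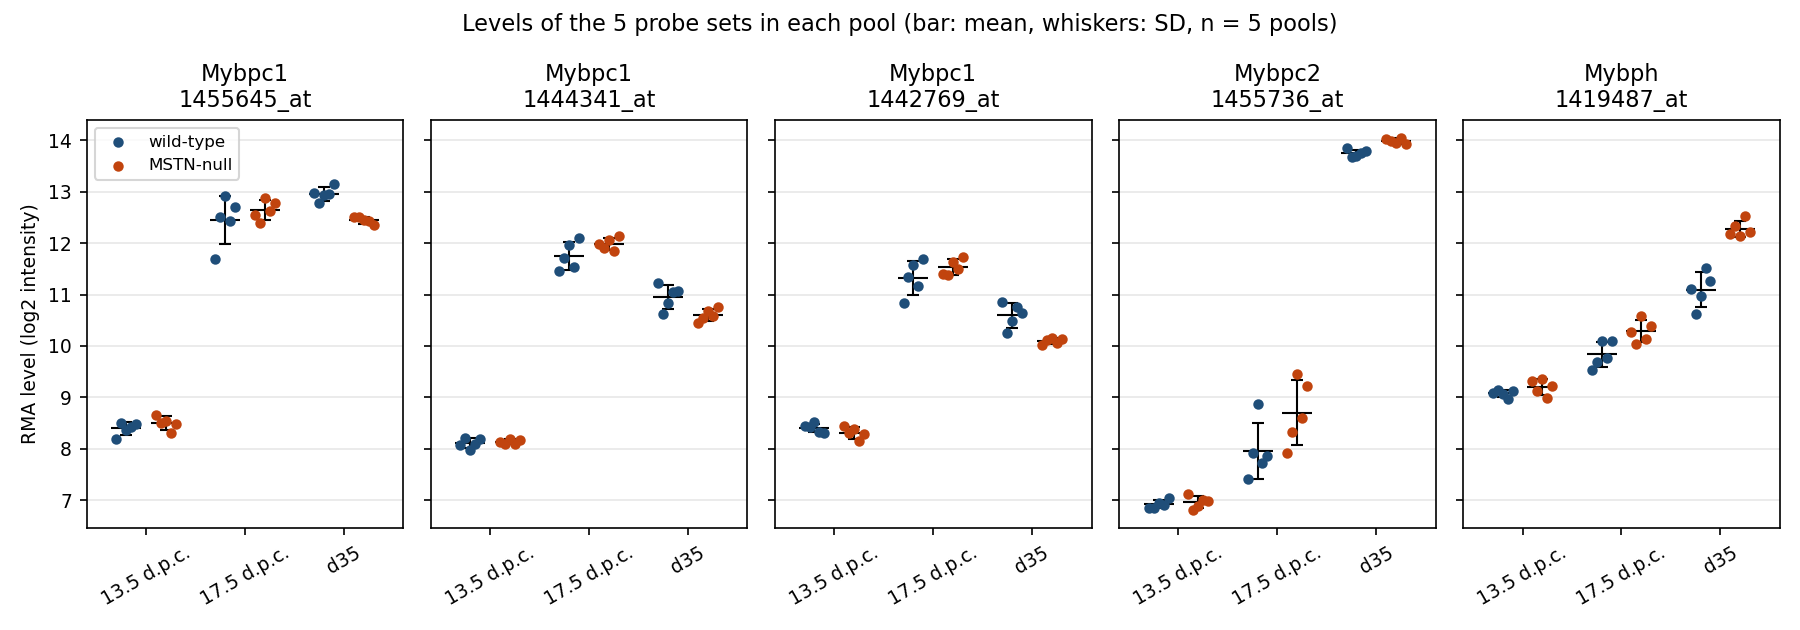
RMA log2 intensity (vertical axis) of the 5 probe sets of Mybpc1, Mybpc2 and Mybph in each of the 30 pools, by time point and genotype (blue, wild-type; orange, MSTN-null), with bars for means and whiskers for SD (n = 5 pools). At d35 the wild-type points lie above the MSTN-null points for 2 probe sets of Mybpc1 and below them for Mybpc2 and Mybph, and at 13.5 d.p.c. the genotypes overlap in every panel.

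Because the 3 genes were measured in the same RNA, their levels can also be set against each other within a pool. The level of 1 probe set relative to another has no meaning in itself, but its shift between genotypes does. At d35 the gap of Mybpc1 (1455645_at) over Mybpc2 was 0.75 larger in wild-type than in MSTN-null pools, a 1.68-fold shift in their ratio, and the gaps of single pools did not overlap (-0.90 to -0.63 in wild-type, -1.61 to -1.48 in MSTN-null). The gap of Mybpc1 over Mybph shifted by 1.70, or 3.24-fold, with 1.43 to 2.16 in wild-type and -0.09 to 0.32 in MSTN-null pools. Mybph also differed from Mybpc2, with which it shares a direction, since their gap shifted by -0.95 (1.93-fold toward Mybph in MSTN-null). In hindquarters they were 0.55, 0.26 and 0.29, with overlap between the genotypes in each, and 0.51, 0.38 and 0.13 without the 2 pools that stood apart. In whole embryos they were -0.06, 0.03 and -0.09, but the first and the last involve Mybpc2, which lay below the median of its chip there, so little can be read from them. These shifts restate the differences above and were given no test of their own.

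**Figure D2:**
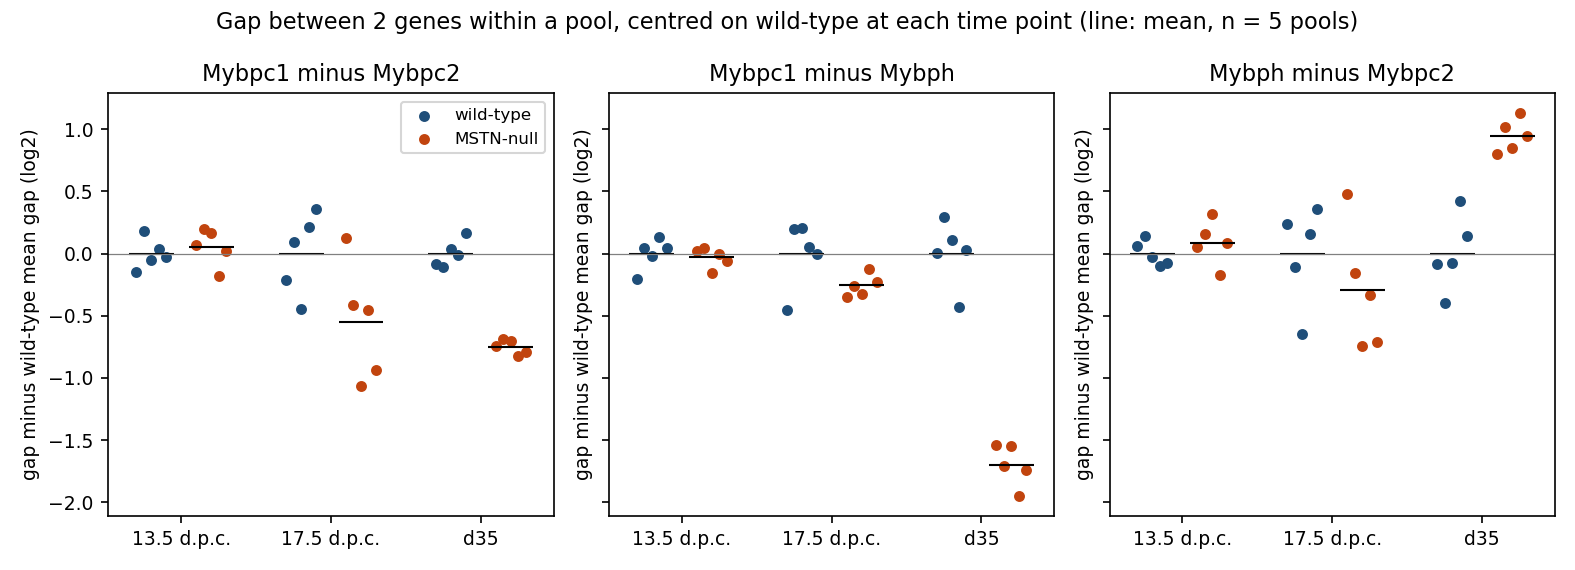
Gap between the log2 intensities of 2 genes in the same pool, less the mean wild-type gap of that time point (vertical axis), for 3 pairs of genes (brightest probe set of each) in wild-type (blue) and MSTN-null (orange) pools, with lines for means. The genotypes separate in all 3 pairs at d35, by 0.75, 1.70 and 0.95 on the log2 scale, and overlap at both earlier times.

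At 17.5 d.p.c. all 5 probe sets were lower in wild-type hindquarters on average, but none was called, as was the case for every probe set at that time point (0%; 2.43% had an unadjusted p under 0.05). Mybpc2 had the widest difference of the 3 genes. Its MSTN-null pools ranged from 7.93 through 8.32, 8.60 and 9.22 to 9.45, and its wild-type pools from 7.42 through 7.73, 7.86 and 7.92 to 8.86. The groups overlapped, and the difference of -0.74 (SE 0.319) was the 5th lowest of all probe sets, with an unadjusted p of 0.0393 by limma. By the exact permutation test p was 0.0873. Mybph stood at 10.04, 10.14, 10.28, 10.38 and 10.59 in MSTN-null pools and at 9.53, 9.69, 9.76, 10.09 and 10.10 in wild-type pools, a difference of -0.45 (SE 0.131; unadjusted p = 0.00542 by limma). Here too the groups overlapped, as 2 wild-type pools reached above the lowest MSTN-null pool. For Mybph the permutation test gave p = 0.0317.

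Mybpc1 was among the brightest probe sets in hindquarters, with 1455645_at between ranks 6 and 13 of chip B on every array. Its wild-type pools stood at 11.70, 12.43, 12.51, 12.71 and 12.91 and its MSTN-null pools at 12.40, 12.55, 12.64, 12.78 and 12.88. Wild-type pool 1, the one with the deviating array, set most of the difference of -0.20 (SE 0.194), which was -0.01 without it and 0.03 with MSTN-null pool 5 left out as well. The other Mybpc1 probe sets differed by -0.21 and -0.23, and by -0.04 and -0.12 without those 2 pools. Mybpc2 and Mybph were at -0.48 and -0.35 without them, and no probe set of the 3 genes was called with or without.

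**Figure D3:**
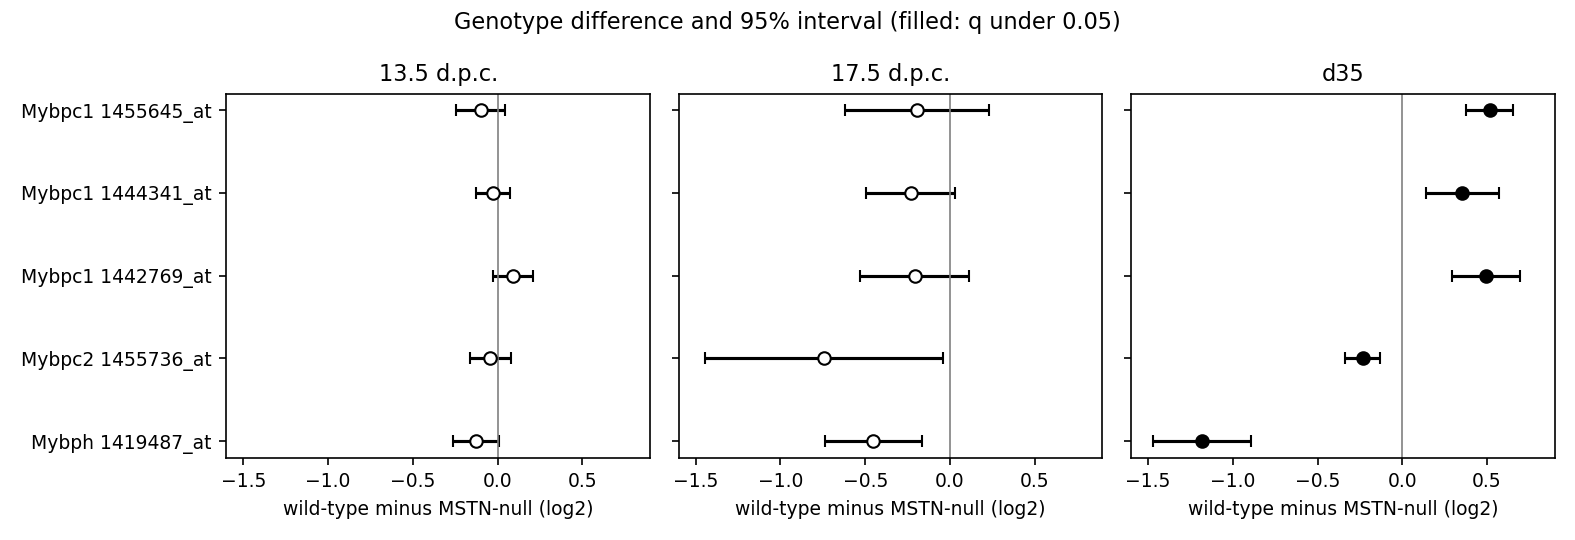
Difference between wild-type and MSTN-null in log2 intensity (horizontal axis) for the 5 probe sets at each of the 3 time points, with 95% intervals from limma and filled symbols for q under 0.05. All 5 are called at d35, with Mybpc1 on the right and Mybpc2 and Mybph on the left of 0, and none is called at the earlier times.

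The levels of all 3 genes in hindquarters varied from pool to pool together with muscle markers. Against the mean of the 10 skeletal muscle markers, and after each genotype was centred on its mean, r over the 10 pools was 0.95 for Mybph, 0.88 for Mybpc2 and 0.82 to 0.87 for the Mybpc1 probe sets. The pools share arrays and normalization with the markers, so these values are a description. Over the 8 pools left without wild-type pool 1 and MSTN-null pool 5, r was 0.93, 0.85 and 0.72 to 0.98. The 10 markers themselves were all lower in wild-type on average, with a median of -0.10 (none called), but 6 of 10 were lower, with a median of -0.02, without the 2 pools. The mean of the markers ranged from 10.74 to 11.27 in wild-type and from 10.91 to 11.30 in MSTN-null pools. With the marker mean subtracted, the differences were -0.62 for Mybpc2, -0.32 for Mybph and -0.07 to -0.10 for Mybpc1, and none was called. Without the 2 pools these were -0.45, -0.32 and, for Mybpc1, -0.08 to 0.06. Liver markers were higher in wild-type for 9 of 9 (none called), by a median of 1.29 with all pools and of 0.22 without the 2. The part of tissue content in the differences at 17.5 d.p.c. was not tested further.

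**Figure D4:**
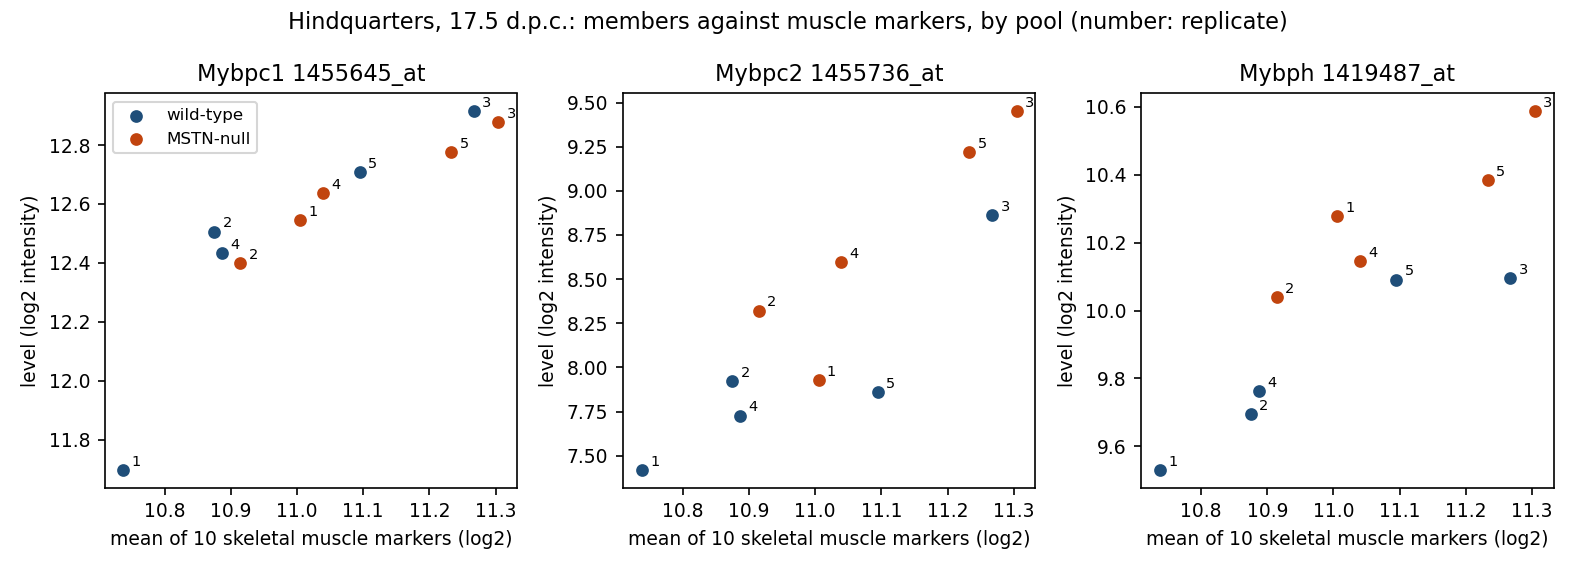
Levels of Mybpc1 (1455645_at), Mybpc2 and Mybph in log2 intensity (vertical axes) against the mean of 10 skeletal muscle markers (horizontal axes) in the 10 hindquarter pools of 17.5 d.p.c., blue for wild-type and orange for MSTN-null, numbered by replicate. All 3 genes rise along the marker mean, wild-type pool 1 is lowest on both axes in each panel, and MSTN-null pool 3 is highest on the marker axis.

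In whole embryos of 13.5 d.p.c. none of the 5 probe sets was called, against 0.54% of all. Mybph ranged from 8.97 to 9.14 in wild-type and from 8.98 to 9.36 in MSTN-null pools (difference -0.13, SE 0.0636, q = 0.353). Mybpc2 lay at 6.84 to 7.04 and 6.82 to 7.11, close to the median of chip B (7.06), and differed by -0.04 (SE 0.0558). The 3 probe sets of Mybpc1 differed by -0.10, 0.09 and -0.03, with ranges that overlapped, from 7.98 to 8.67 over both genotypes. The widest reach of a 95% interval over the 5 probe sets was -0.26 (Mybph), or 1.20-fold for MSTN-null over wild-type.

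Across the 3 tissues the genes took different courses within each genotype. Mybpc2 went from 6.92 and 6.96 (wild-type and MSTN-null means) in whole embryos to 7.96 and 8.70 in hindquarters and 13.75 and 13.99 in pectoralis, or from the 46.8th to the 86.9th and the 100th percentile of its chip. Mybph stood at 9.08 and 9.21, then 9.83 and 10.29, then 11.10 and 12.28. Mybpc1 (1455645_at) stood at 8.40 and 8.50, then 12.45 and 12.65, then 12.96 and 12.45. In wild-type, 4 of 5 hindquarter pools lay below every pectoralis pool at this probe set, and in MSTN-null the ranges of the tissues overlapped, whereas the other Mybpc1 probe sets were lower in pectoralis than in hindquarters (10.60 against 11.33 and 10.96 against 11.75 in wild-type). Tissue, age and share of muscle changed together, array medians differed between time points, and no test was made between them.

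The genotype difference itself was compared between time points in a limma fit of all 30 pools. That of Mybph was more negative at d35 than at 13.5 d.p.c. by -1.05 (SE 0.179, q = 0.00167; 1.17% of all probe sets were called) and than at 17.5 d.p.c. by -0.73 (q = 0.0407; 0.715% called). The second of these was lost after Benjamini-Hochberg adjustment (q = 0.0564) and in 12 of the 20 fits that left out a pool of either time point, whereas the first was kept under each alternative run. That of Mybpc1 was more positive at d35 than at 17.5 d.p.c., by 0.70 at 1442769_at (q = 0.0263) and 0.59 at 1444341_at (q = 0.0393), and by 0.71 at 1455645_at, which missed the threshold (q = 0.0608). The call of 1444341_at was lost in 17 of 29 other settings, Benjamini-Hochberg adjustment among them (q = 0.0545), and that of 1442769_at in 5 of 29. Without wild-type pool 1 and MSTN-null pool 5 of 17.5 d.p.c. these were 0.53, 0.47 and 0.49, and none of the 3 was called. For Mybpc2 no pair of time points gave a call, with -0.19 between d35 and 13.5 d.p.c. (95% interval -0.78 to 0.39) and 0.51 between d35 and 17.5 d.p.c. (-0.07 to 1.10). The fit takes 1 variance over all tissues, and the SD of Mybpc2 was 0.542 and 0.630 in the groups of 17.5 d.p.c. It was 0.0521 to 0.114 in the other groups, so the first interval is widened by pools outside its comparison. No call was made for any of the 3 genes between the embryonic time points (0% of all; 6.26% at an unadjusted p under 0.05).

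At d35 the rest of the sarcomere gives the surroundings of these differences. The slow-twitch list had 9 of 12 genes called higher in wild-type and 0 lower, with a median difference of 1.91 against -0.01 over all probe sets. Its most changed members were Myh7, the slow myosin heavy chain (2.61, SE 0.224), Tnnt1, slow troponin T (2.46), Myl2, the slow regulatory light chain (2.34), Tnnc1, slow troponin C (2.30), Tnni1, slow troponin I (2.10), and Myl3, the slow essential light chain (1.93). Mybpc1 shared their direction, with a difference of 0.52. It was smaller than that of each of the 9 called slow genes, the lowest of which was Myoz2, a Z-disc protein, at 0.90.

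In the fast-twitch list 12 of 13 genes were lower in wild-type (median -0.12), and 4 of these were called: Myh4, the 2B myosin heavy chain (-0.58), Myoz1, a Z-disc calcineurin binder (-0.27), Casq1, the fast calsequestrin (-0.23), and Actn3, the fast Z-disc actinin (-0.20). The remaining gene, Myh1, the 2X myosin heavy chain, was called higher in wild-type (0.20). The paper lists another probe set of Myh4 at d35, whose difference is not given here. Mybpc2, at -0.23, lay within the range of the called fast genes, whereas the -1.18 of Mybph was beyond every member of that list. With the replicate number as a block 2 of the 13 were called lower and 0 higher.

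Among 25 measured genes of the thick filament and M-band, 7 were called higher in wild-type and 5 lower (median -0.06). Beside the myosins and light chains named above, Myh2, the 2A myosin heavy chain, was higher (0.86), as was Myom3, an M-band protein (0.59). Smyd1, a methyltransferase that acts in myosin assembly, was lower (-0.62). Without 1 pool at a time the higher calls numbered 6 to 7 and the lower ones 2 to 5. The developmental list had 4 of 13 called lower and 0 higher (median -0.14): Sln, a small inhibitor of the calcium pump (-1.52), Myh8, the perinatal myosin heavy chain (-0.44), Chrna1, a subunit of the acetylcholine receptor (-0.35), and Actc1, the cardiac actin that is also the fetal actin of skeletal muscle (-0.34). Of these lists Sln alone had a lower difference than Mybph.

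Mybpc3 and Mybphl, the relatives of the 3 genes known from the heart, were not called at any time point, with differences between -0.07 and 0.07 and, at d35, of -0.02 and -0.03. White adipocyte markers also moved with genotype at d35, 3 of 6 being called higher in wild-type (median 0.52), and the means of the list ran from 9.12 to 9.43 in wild-type and from 8.28 to 9.18 in MSTN-null pools. Of 6 smooth muscle markers 2 were called higher in wild-type, Tagln (0.42, q = 0.00147) and Myh11 (0.32, q = 0.0261), with list means of 8.10 to 8.26 against 8.03 to 8.11, and of 6 neuronal and Schwann cell markers 1 was, S100b (0.22, q = 0.0345). These 3 genes are named after their values were seen. Of the 10 skeletal muscle markers 1 was called, higher in wild-type, and their median was -0.11. After subtraction of the skeletal marker mean the differences of Mybph and of the 3 Mybpc1 probe sets kept their calls. The part of adipose tissue, smooth muscle and nerve in these differences was not tested.

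**Figure D5:**
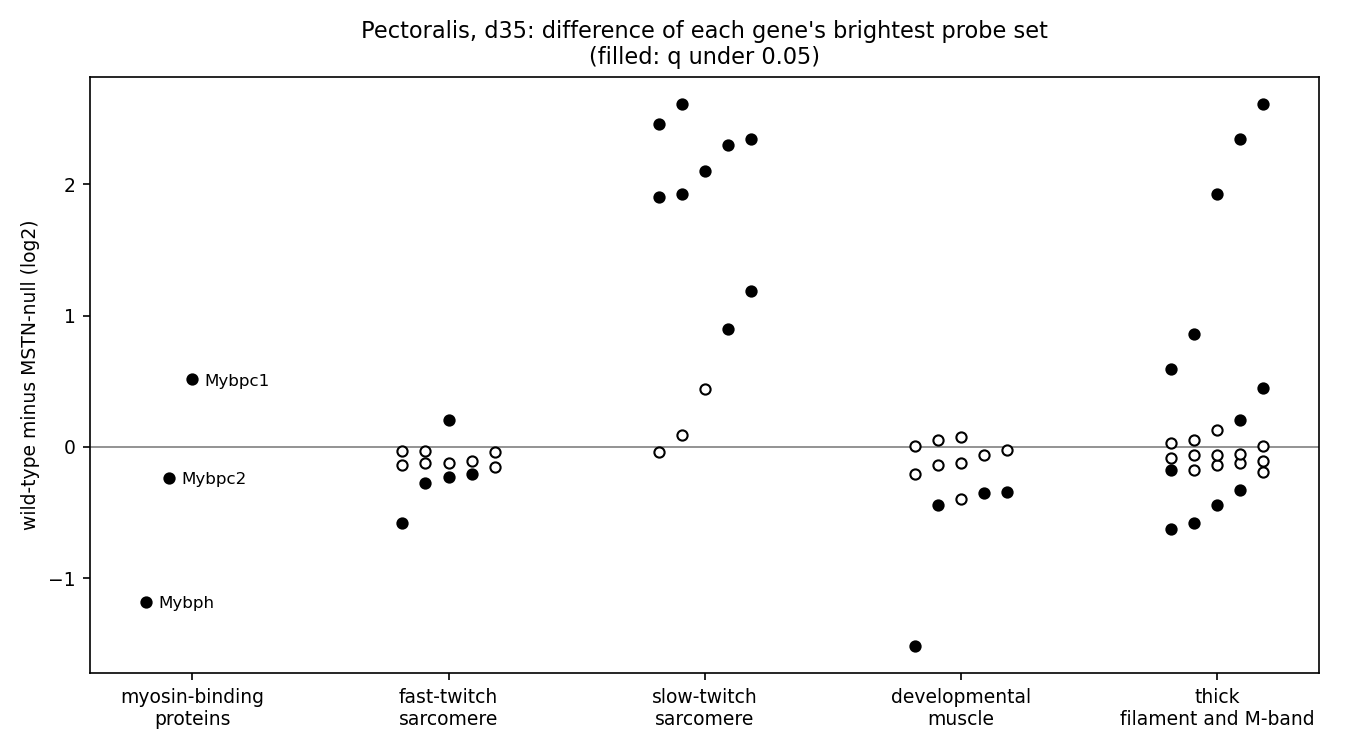
Wild-type minus MSTN-null in log2 intensity (vertical axis) at d35 for Mybpc1, Mybpc2 and Mybph and for the genes of 4 lists (brightest probe set per gene; columns), filled where q is under 0.05. Mybpc1 (0.52) lies on the side of the slow-twitch genes, Mybpc2 (-0.23) among the fast-twitch genes, and Mybph (-1.18) below every gene shown except one of the developmental list, at -1.52.

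At the earlier times the lists gave 1 call, that of Myh1 in whole embryos (-0.26, q = 0.0476), where Myh8 stood at -0.25 and Myl1, the fast essential light chain, at -0.18. Myh1 was dim there, at 5.34 and 5.60 in wild-type and MSTN-null, and its call was lost after Benjamini-Hochberg adjustment, with either further normalization and in 9 of 10 fits that left out a pool. In hindquarters 13 of 13 fast-twitch genes were lower in wild-type (median -0.20), and Actn3 (-0.37), Myoz1 (-0.36) and Casq1 (-0.23) were the farthest from 0. The difference of -0.74 of Mybpc2 was beyond all of them. The slow-twitch list was mixed there, with 7 of 12 genes higher and 5 lower in wild-type (median 0.03, none called). Its widest differences were those of Myh7 (0.50), Myl3 (0.27) and, in the other direction, Casq2, another calsequestrin (-0.23). Unc45b, a myosin chaperone, stood at -0.44, and Myf6 and Myog, myogenic transcription factors, at -0.37 and -0.29. Without wild-type pool 1 and MSTN-null pool 5, 12 of the 13 fast-twitch genes were lower (median -0.12). Of the 12 slow-twitch genes 11 were then higher in wild-type (median 0.09), and none was called. Actn3, Myoz1 and Casq1 stood at -0.12, -0.32 and -0.15, Myh7 and Myl3 at 0.69 and 0.37, and Unc45b, Myf6 and Myog at -0.16, -0.30 and -0.16.

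The genes whose course over the 10 pools was most like that of a member were picked by Pearson r after each genotype was centred on its mean, out of all probe sets with 1 gene symbol. Such values describe 10 pools that share arrays and tissue content. In hindquarters Tubb6, a beta tubulin (r = 0.997), Rrad, a small GTPase-like protein of muscle (0.99), Nav1 and Cdh13 were nearest to Mybpc1. Kif18a, Klhl21, Tcap, the titin cap of the Z-disc (0.96), and Ckm, the muscle creatine kinase (0.96), were nearest to Mybpc2. Kif1b (0.98), Dag1, the dystroglycan that links the fiber to its matrix (0.98), Capn3, a muscle calpain (0.97), and Cavin4, a muscle caveolar protein (0.97), were nearest to Mybph. Kif18a was dim (mean level 3.99). The r of Tcap without centring was 0.74 and that of Dag1 0.63, whereas Ckm kept 0.95.

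In pectoralis the nearest probe sets were Mfsd4b5, Alx1, Rp9 and Gpr162 for Mybpc1 (r from 0.95 to 0.96), Tmem44, 1700042O10Rik, Ldlrad4 and Tmcc3 for Mybpc2 (0.95 to 0.97), and Mrm3, Jakmip2, Psma6 and Chm for Mybph (0.97 each). Of these, Mfsd4b5, Alx1, 1700042O10Rik and Jakmip2 were dim, at mean levels of 4.22 to 4.89, below the array medians. Without centring, r over the 12 ran from -0.20 (Tmcc3) to 0.95 (Jakmip2), with -0.08 for Gpr162. No gene was nearest to more than 1 of the 3, and none of the 12 was nearest at both times. One of the 12, Psma6, a proteasome subunit, was called (-0.22, q = 0.0454). Within genotype, Mybpc1 and Mybpc2 correlated positively over the pectoralis pools (r = 0.57 for 1455645_at), as did Mybpc1 and Mybph (0.54) and Mybpc2 and Mybph (0.55). Without centring the first 2 values became -0.77 and -0.81, and the last 0.93, since the genotypes lie apart.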

How the data were processed

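Total RNA of 3 animals was pooled, and each of the 30 pools (5 per genotype and time point) was measured on chips A and B of the MOE430 set (60 arrays). The authors normalized the arrays with affy's RMA (its version is not given in the sources used here), and the deposited values are log2 intensities from 2.78 to 15.3. Chips of a pool were joined by replicate number. Removing 64 controls per chip, and the chip B copy of 100 probe sets that both carry, left 45037, of which 34945 have 1 gene symbol, 932 several and 9160 none. Intensities are not counts, so precision rests on the number of pools and their spread (median SD 0.077, 0.131 and 0.0993 at the 3 time points in order of age).

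Wild-type and MSTN-null were compared within each time point using lmFit and eBayes of limma (version 3.58.1; R version 4.3.3). Files were read with data.table (version 1.17.8). Storey q-values were computed over all probe sets (lambda from 0.05 to 0.95 in steps of 0.05), with a threshold of 0.05. Differences between time points were tested as interactions in a fit of 30 pools, and single values by an exact permutation test over 252 splits. The steps were tested on simulated data. The brightest probe set, by its mean over all 30 pools, stands for a gene in a list. Genes named are all probe sets of the 3 genes, up to 6 called genes of each sarcomere list with the largest difference at d35, and the 4 most alike by Pearson r, beside Mybpc3 and Mybphl. Of the 3 largest in each list at each other time point only some are named. The genes, lists and motifs were chosen with earlier results of these data, and for the motifs the sequences, known. Promoter windows are RefSeq's (GRCm38.p6). Alternatives covered the adjustment, the chips fitted separately, omission of dim probe sets, further quantile normalization, centring of array medians, moderation with trend, a single fit, a replicate block, 1 probe set per gene and each pool left out. Subtraction of the skeletal muscle marker mean and removal of 2 hindquarter pools were added after the data were seen. Figures were drawn with Python 3.11.15 and matplotlib 3.10.9.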

Additional observations from a re-analysis of the deposited data

Results flagged for a closer look

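Of 15 comparisons of a genotype difference between 2 time points, 4 passed the threshold of 0.05 for q in the limma fit of all 30 pools, which is why they are listed. Of all probe sets, 1.17% passed between d35 and 13.5 d.p.c., 0.715% between d35 and 17.5 d.p.c. and 0% between the embryonic times. For Mybph the difference was more negative at d35 than at 13.5 d.p.c. by -1.05, and than at 17.5 d.p.c. by -0.73. For Mybpc1 it was more positive at d35 than at 17.5 d.p.c. by 0.70 at 1442769_at and by 0.59 at 1444341_at. The calls of these Mybpc1 probe sets were lost in 5 and 17 of 29 other settings. That of Mybph between d35 and 17.5 d.p.c. was lost in 13 of 30, and that between d35 and 13.5 d.p.c. in 0 of 29. The time points differ in tissue and age, which cannot be told apart. None of the 30 groups of 5 pools held a pool that stood apart by Dixon's test (gap over range above 0.71).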

How the results depend on the processing

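At d35 the differences of Mybph, and of Mybpc1 at 1455645_at and 1442769_at, kept direction and call under each alternative run. Those of Mybpc1 at 1444341_at and of Mybpc2 lost the call in 11 of 19 and 4 of 20 settings, named above where they matter. Of the probe sets of the 3 genes, 5 were called at d35, against 3 with 1 probe set per gene (only 3 tested) and 3 to 5 when a pool was left out, with 3 without wild-type pool 3. The count of all probe sets called at d35 (2062) became 1324 after Benjamini-Hochberg adjustment, 1345 with 1 probe set per gene, 1226 with the muscle marker mean subtracted and 777 to 2003 without 1 pool. At 13.5 d.p.c. (243) it was 159, 9 and 401 in the same order, 148 with array medians centred, 0 in a single fit and 1 to 479 without 1 pool. At 17.5 d.p.c. (0) a single fit gave 14. The 3 calls between d35 and 17.5 d.p.c. became 1 after Benjamini-Hochberg adjustment, 1 without the 2 hindquarter pools and 0 to 4 without 1 pool, and the 1 between d35 and 13.5 d.p.c. became 2 with further quantile normalization and 2 with the marker mean subtracted. Signs turned in values that were never called: 1444341_at at 13.5 d.p.c. (0.0123 with the marker mean subtracted, -0.0513 to 0.0045 without 1 pool), 1455645_at at 17.5 d.p.c. (0.0256 without the 2 pools) and between 17.5 and 13.5 d.p.c. (0.124 without them, -0.213 to 0.0915 without 1 pool), and Mybpc2 between d35 and 13.5 d.p.c. (0.0611 with further quantile normalization). Apart from that top-rank normalization, fewer probe sets tested and, for Mybpc2, the variance a single fit shares, the causes were not tested.

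With the replicate number as a block, 4 of the 5 probe sets stayed called at d35 (1444341_at at q = 0.0540), and the counts of all probe sets were 204, 0 and 1854. Mybpc2 then gave 1 call between 17.5 and 13.5 d.p.c. (-0.70, q = 0.0487), and the calls between d35 and 17.5 d.p.c. were 4. At 17.5 d.p.c. the block left Mybpc2 and Mybph uncalled (q = 0.709 each). Deviations of same-numbered pools correlated at -0.20 to 0.48, over 0.1 in 0, 3 and 1 of 5 pairs at the 3 time points, so the numbers were not taken to pair the pools, although 6 of 10 pools at 17.5 d.p.c. correlated best with their own number, which is a hint from the data and not from the design. With 5 pools a genotype the precision was lowest at 17.5 d.p.c., where the spread between pools was widest.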
